A study of Mus musculus with 16 samples.

Results

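The genes described here are 10 feedback inhibitors, ligands and immediate targets of TGF-beta, Nodal and BMP signaling, measured in RNA that coprecipitated with Sox2 from mouse embryonic stem cells (mESC). They are Pmepa1, Smad6, Smad7, Ski, Skil, Nodal, Lefty1, Lefty2, Id1 and Id3, and were taken by symbol as 10 of the 53379 genes in the count table. All 10 passed the filter of 3 or more unique molecules in at least 1 library, as did 22936 genes in all. Pmepa1 is a gene the study names for its enrichment, so its IP to input values are given as a description without a test, and counts of calls are over the other 9 genes.

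Ligands of the TGF-beta family bind pairs of serine/threonine kinase receptors, which phosphorylate Smad proteins that then enter the nucleus and regulate genes. Nodal and the TGF-betas signal through Smad2 and Smad3, and BMPs through Smad1, Smad5 and Smad9. The response turns on its own inhibitors, which act outside the cell (Lefty1 and Lefty2), at the receptor (Smad6 and Smad7), at the Smads themselves (Pmepa1) and in the nucleus (Ski and Skil). In mESC, BMP signaling raises the Id genes, whose products restrain differentiation together with LIF, and Nodal signaling is active as well.

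The cells were male mESC kept on gelatin in medium with serum, LIF and the inhibitors PD0325901 and CHIR99021. They were crosslinked with formaldehyde (fRIP), which also joins RNA to a protein through other proteins, or with UV light (UV-RIP), which joins only RNA and protein in direct contact. Each crosslinker had 4 IP and 4 input libraries from 4 culture plates, numbered as replicates 3 to 6, and no plate was shared between the crosslinkers. The labels name no genetic change, and no IP with another antibody was analysed here, so RNA held by Sox2 and RNA held by the beads cannot be told apart. PD0325901 blocks the kinases that activate ERK and CHIR99021 blocks GSK3, so all values are from cells under both inhibitors.

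Libraries held between 12456298 and 21211537 UMIs, and levels are given as CPM, the UMIs of a gene per 1000000 UMIs of its library. The inputs carried the markers of naive mESC, with a summed level of 4524 to 5278 CPM in the fRIP inputs and 2859 to 3135 CPM in the UV-RIP inputs over a list of 12 genes. Sox2 itself was listed at 0 in all 16 libraries, and its gene body lies inside that of Sox2ot on the same strand, so it could not serve as a check of the cells. Markers of fibroblast feeders summed to at most 3.30 CPM in any input, and those of primed and mesendoderm cells to at most 6.01 CPM. Trophoblast markers summed to 54.8 to 74.0 CPM in the inputs, mainly from Tfap2c (a mean of 56.6 CPM in the fRIP and 53.1 CPM in the UV-RIP inputs), and primitive endoderm markers to 459 to 593 CPM, mainly from Sparc. Of the other primitive endoderm markers Lama1 averaged 97.8 CPM in the fRIP and 74.2 CPM in the UV-RIP inputs, Gata4 6.04 and 4.49 CPM and Gata6 0.308 and 0.194 CPM. The fRIP input of replicate 4 stood apart from the other fRIP inputs. Small structural RNAs (the miscellaneous RNA class) made up 2.81% of its UMIs, against 0.349% to 0.620%. Values that rest on this plate are also given without it where they change a call or move by over 1.5 times. Among the fRIP IPs, replicate 5 differed from the rest. Its share of UMIs on gene bodies of 20 kb or more was 67.7%, while replicates 3, 4 and 6 had 76.6%, 76.3% and 74.8%. The RNA Gm26917 accounted for 12.4% there, and for 6.29%, 5.44% and 6.81% in replicates 3, 4 and 6. The part of this library in the trend on gene length was not tested.

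**Figure D1:**
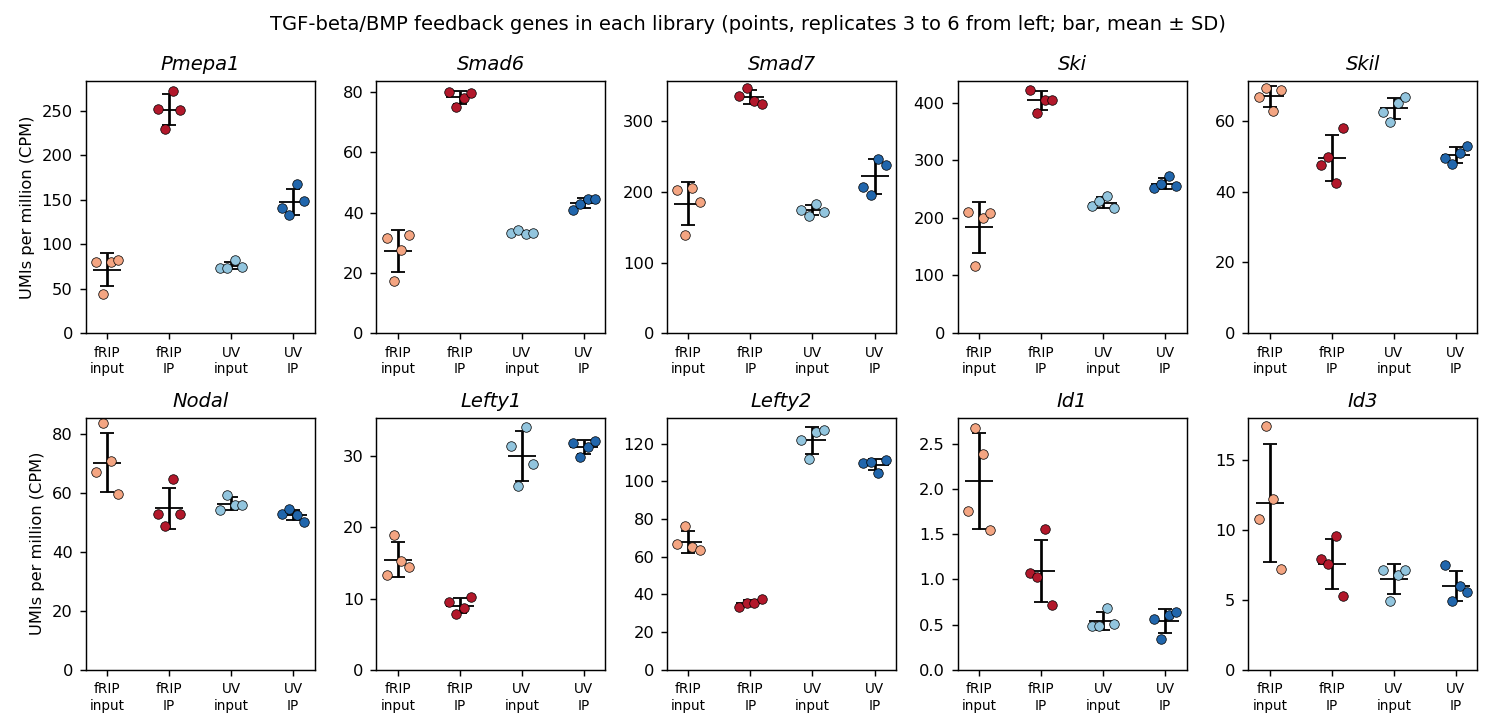
Level of each of the 10 genes in CPM (vertical axis, from 0 and with its own scale in each panel) in the 4 groups of libraries (horizontal axis). Points are single libraries, replicates 3 to 6 from left to right, and bars are the mean ± SD of 4. Pmepa1, Smad6, Smad7 and Ski lay higher in the IP than in the input with both crosslinkers, whereas Lefty2 lay lower in the fRIP IP and was higher in UV-RIP than in fRIP libraries.

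Pmepa1 encodes a membrane protein that binds the receptor-activated Smads and keeps them from the receptor. The gene spans chr2:173224458-173276533 (GRCm38, minus strand), of which 9.43% is exon. In fRIP its level in the IP was 252, 229, 272 and 251 CPM in replicates 3 to 6, against 79.7, 43.5, 79.5 and 81.9 CPM in the inputs. In UV-RIP the IP had 141, 133, 168 and 148 CPM and the inputs 73.7, 73.3, 82.4 and 74.5 CPM. Every IP library was above every input of its crosslinker, and the fRIP IPs were above the UV-RIP IPs. The fitted log2 fold change of IP over input was 1.86 (SE 0.10) in fRIP, a 3.62-fold difference, and 0.96 (SE 0.04) in UV-RIP, a 1.94-fold difference. Without replicate 4 the fRIP value was 1.68. Among the 10208 well counted genes (100 UMIs or more on average), Pmepa1 stood at percentile 99.99 of the fRIP and 99.95 of the UV-RIP log2 fold changes. The neighbouring gene Pmepa1os, on the opposite strand and next to but not overlapping Pmepa1, had at most 20 UMIs in any library.

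The inhibitory Smads were higher in the IP with both crosslinkers. Smad6, which mainly blocks BMP receptors, spans chr9:63953076-64022059 (minus strand), of which 4.65% is exon. Its fRIP IP levels were 79.99, 75.04, 78.1 and 79.8 CPM and the inputs had 31.5, 17.4, 27.7 and 32.4 CPM. In UV-RIP the IPs had 40.9, 42.9, 44.5 and 44.4 CPM and the inputs 33.2, 34.2, 32.9 and 33.2 CPM. The groups did not overlap with either crosslinker. Smad6 rose 2.93-fold in the fRIP IP (log2 fold change 1.55, SE 0.11, edgeR adjusted p = 1.06e-10) and 1.29-fold in the UV-RIP IP (0.37, SE 0.05, adjusted p = 1.14e-10). The second change is below the 1.5-fold threshold of a call.

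Smad7, which blocks both TGF-beta and BMP receptors, spans chr18:75367529-75395935 (plus strand), of which 15.9% is exon. The fRIP IPs held 337, 347, 329.6 and 324 CPM and their inputs 203, 139.5, 205 and 185 CPM. The UV-RIP IPs held 207, 195, 247 and 238 CPM and their inputs 175, 166, 183 and 172 CPM. Here too each IP library lay above all inputs of its crosslinker. Smad7 rose 1.84-fold in the fRIP IP (log2 fold change 0.88, SE 0.09, adjusted p = 2.67e-08) and 1.27-fold in the UV-RIP IP (0.35, SE 0.04, adjusted p = 6.25e-17).

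The nuclear co-repressors Ski and Skil differed in direction. Both encode proteins that bind Smad complexes and recruit histone deacetylases. Ski (chr4:155154075-155222592, minus strand, 8.12% exon) had 423, 383, 406 and 405 CPM in the fRIP IPs and 209.6, 117, 199.9 and 209 CPM in the inputs. Its UV-RIP levels were 252, 259, 273 and 255 CPM in the IPs and 220.5, 230.2, 238 and 218 CPM in the inputs. Ski rose 2.25-fold in the fRIP IP (log2 fold change 1.17, SE 0.10, adjusted p = 1.66e-09), and the log2 fold change in UV-RIP was 0.20 (SE 0.04, adjusted p = 2.98e-06), or 1.15-fold. In a fit over all 16 libraries the UV-RIP difference of Ski no longer passed (adjusted p = 0.0689).

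Skil (chr3:31095058-31122577, plus strand, 35.2% exon) ran the other way. Its fRIP IPs held 47.5, 49.9, 42.4 and 58.1 CPM and the inputs 66.7, 69.5, 62.9 and 68.8 CPM, and its UV-RIP IPs held 49.5, 47.8, 50.8 and 53.1 CPM against 62.6, 59.7, 65.0 and 66.8 CPM. Every IP was below every input of its crosslinker. The log2 fold change was -0.44 in fRIP (SE 0.08, adjusted p = 9.29e-05) and -0.34 in UV-RIP (SE 0.05, adjusted p = 5.52e-11), both within the 1.5-fold threshold. The UV-RIP value was -0.16 under TMM scaling, edgeR's trimmed mean of M-values (adjusted p = 0.00399), -0.18 without the abundant RNAs Gm26917 and Gm42418 in the library sizes (adjusted p = 0.000374), -0.16 under DESeq2 median of ratios (adjusted p = 0.0476) and -0.16 with the gene-length trend removed (adjusted p = 0.00394). Of the 10 genes Skil had the lowest transcript GC content (41.0%, percentile 9.19 of the genes tested), and with a trend on transcript GC removed its values were -0.18 in fRIP (adjusted p = 0.0933) and 0.039 in UV-RIP (adjusted p = 0.674), neither past the test and the second with the opposite sign.

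Nodal, the ligand (chr10:61417972-61425338, plus strand, 28.4% exon), had 48.7 to 64.8 CPM in the fRIP IPs and 59.6 to 83.8 CPM in the inputs. The groups overlapped, though the IP was below the input of its own plate in all 4 plates. The log2 fold change was -0.36 in fRIP (SE 0.09, adjusted p = 0.00351) and -0.10 in UV-RIP (SE 0.05, adjusted p = 0.102), where the IPs held 50.3 to 54.6 CPM and the inputs 54.3 to 59.4 CPM. In fRIP Nodal passed the test without reaching 1.5-fold (-0.21 without replicate 4, and -0.067 with the gene-length trend removed, where it did not pass), and in UV-RIP its sign turned under other scalings.

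Lefty1 and Lefty2 encode secreted antagonists that bind Nodal or its co-receptors, and they lie on the plus strand of chromosome 1, at 180935022 to 180938400 and 180893108 to 180899103. Their coding sequences of 1104 bases each are 91.85% identical, and pairs of 34-base reads that did not map uniquely were discarded. Of the 34-base words in the longest coding transcript of Lefty1, 23.8% also occur in Lefty2, and of those of Lefty2 15.5% occur in Lefty1, so both counts are uncertain in their level. Pmepa1, Smad6, Smad7, Skil, Nodal, Id1 and Id3 shared 0 such words with any other gene, and Ski 0.091% of its words.

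Both Lefty genes were lower in the fRIP IP, and neither was called in UV-RIP. Lefty1 had 9.48, 7.78, 8.63 and 10.2 CPM in the fRIP IPs and 13.3, 18.9, 15.3 and 14.5 CPM in the inputs. Lefty2 had 33.2, 35.6, 35.5 and 37.6 CPM in the IPs and 67.0, 76.1, 65.1 and 63.4 CPM in the inputs. For both genes each fRIP IP was below each fRIP input. Lefty2 fell by 0.94 on the log2 scale (SE 0.08, adjusted p = 4.77e-09) and Lefty1 by 0.78 (SE 0.12, adjusted p = 1.08e-05). In UV-RIP Lefty1 held 29.9 to 32.1 CPM in the IPs and 25.9 to 34.1 CPM in the inputs, and Lefty2 held 105 to 111 CPM in the IPs and 112 to 127 CPM in the inputs. The UV-RIP log2 fold changes were 0.06 for Lefty1 (SE 0.06, adjusted p = 0.516) and -0.16 for Lefty2 (SE 0.04, adjusted p = 0.000634). The value of Lefty2 passed the test below the fold threshold, but not under several alternatives. Its sign turned under TMM scaling (0.019, adjusted p = 0.818). It did not pass without Gm26917 and Gm42418 in the library sizes (adjusted p = 0.917) or under DESeq2 median of ratios (0.913). Nor did it pass with the trend on gene length (0.360) or transcript GC (0.433) removed, or in a fit over all 16 libraries (0.0606). Lefty1 passed the test below the fold threshold under other scalings, at 0.24 under TMM (adjusted p = 0.000252), 0.21 without Gm26917 and Gm42418 in the library sizes (adjusted p = 0.00139) and 0.23 under DESeq2 median of ratios (adjusted p = 0.0387), and at 0.31 with the gene-length trend removed (adjusted p = 7.84e-07).

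The Id genes, which encode helix-loop-helix proteins without a DNA-binding region and are direct BMP targets, were the shortest of the 10. Id1 (chr2:152736251-152737410, plus strand) has no intron sequence outside its annotated exons and was close to the floor of the assay, with 13 to 33 UMIs in the fRIP IPs, 21 to 38 in the fRIP inputs, 5 to 11 in the UV-RIP IPs and 6 to 9 in the UV-RIP inputs. Id3 (chr4:136143497-136145755, plus strand, 79.3% exon) had 7.90, 7.54, 9.57 and 5.26 CPM in the fRIP IPs and 10.8, 17.4, 12.2 and 7.19 CPM in the inputs. In all 4 fRIP plates the IP was below the input for both genes. Id1 fell by 0.94 on the log2 scale (SE 0.23, adjusted p = 0.00211) and Id3 by 0.63 (SE 0.13, adjusted p = 0.000333). The Id3 value was -0.41 without replicate 4 and then no longer reached 1.5-fold. In UV-RIP the values were 0.00 for Id1 (SE 0.40, adjusted p = 1) and -0.12 for Id3 (SE 0.11, adjusted p = 0.450), and the Id1 counts could not show a difference smaller than that error.

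Over the other 9 genes, fRIP called 3 higher in the IP (Smad6, Smad7 and Ski) and 4 lower (Lefty1, Lefty2, Id1 and Id3). Of all genes tested 8.8% were called higher and 10.7% lower in fRIP (edgeR quasi-likelihood test, Benjamini-Hochberg adjusted p below 0.05 together with more than 1.5-fold). By adjusted p alone the counts were 3 higher and 6 lower, against 17.6% and 21.9% of all genes. The median log2 fold change of the 9 was -0.44, and that of all genes tested was -0.03. The fRIP log2 fold changes of Smad6, Ski and Smad7 stood at percentiles 99.91, 98.95 and 96.24 of the well counted genes, and those of Lefty1 and Lefty2 at 8.09 and 4.45.

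In UV-RIP edgeR called 0 of the 9 genes in either direction, against 0.68% of all genes called higher and 5.53% lower. At an unadjusted p below 0.05, 3 were higher and 3 lower, against 8.03% and 32.6% of all genes, and DESeq2 with total UMIs also called 0 with the fold threshold. By adjusted p alone 3 of the 9 were higher (Smad6, Smad7 and Ski) and 2 lower (Skil and Lefty2), against 6.6% and 29.0% of all genes. The signs of the 3 higher genes held under each scaling and alternative fit. The median of all genes tested was -0.17 in UV-RIP and 0.01 under TMM scaling, and the UV-RIP log2 fold change under TMM was 0.55 for Smad6, 0.53 for Smad7 and 0.38 for Ski. One RNA, Gm26917, took 18.4% to 22.3% of the UMIs of the UV-RIP IPs and 12.03% to 12.29% of those of the inputs. With library sizes counted without Gm26917 and Gm42418 the UV-RIP median of all genes was -0.02. The scaling also set the split of UV-RIP calls over all genes, which was 156 higher and 1268 lower here and 505 higher and 425 lower under TMM.

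**Figure D2:**
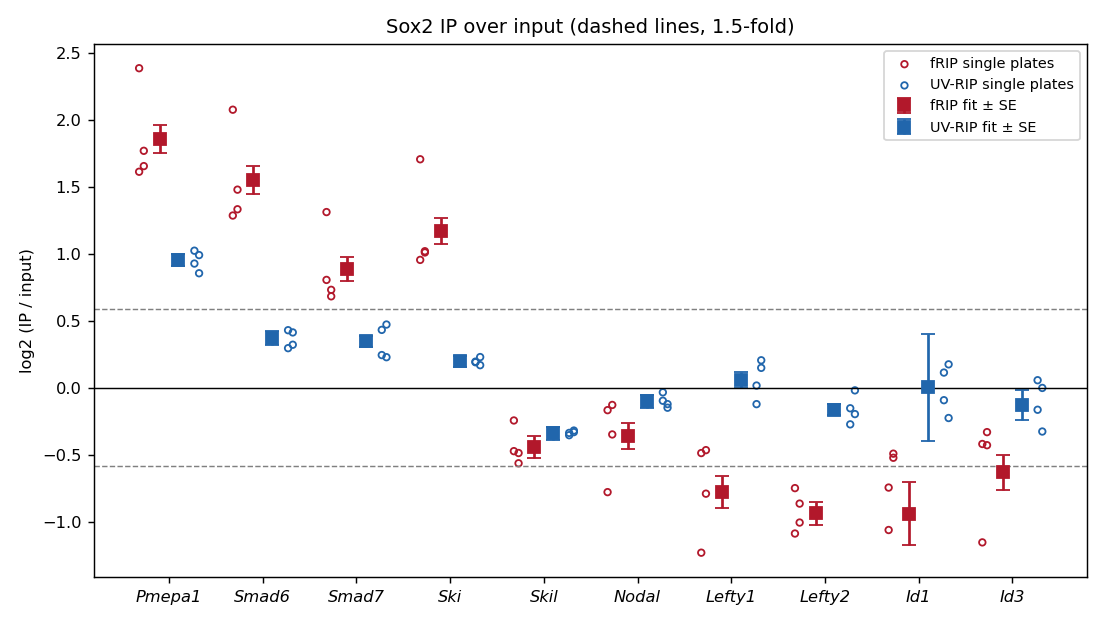
Log2 ratio of IP to input (vertical axis) for the 10 genes (horizontal axis) in fRIP and UV-RIP. Squares are the fitted log2 fold changes ± SE, open circles the ratios of the 4 single plates (CPM with 0.5 added), and dashed lines mark 1.5-fold. Pmepa1 at 1.86 and 0.96 was past the upper line with both crosslinkers, Smad6, Smad7 and Ski only in fRIP, and the Lefty and Id genes were past the lower line in fRIP alone.

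The ratio of IP to input differed between the crosslinkers for 6 of the 9 genes by the interaction test on the 16 libraries together (adjusted p below 0.05, plate as the block). It was greater in fRIP for 3, where 18.6% of all genes were, and smaller in fRIP for 3, where 8.07% of all genes were. Under TMM scaling the split over all genes was 3062 greater and 2810 smaller, against 4264 and 1852. The fRIP minus the UV-RIP log2 fold change was 1.17 for Smad6 (SE 0.13, adjusted p = 2.00e-07), 0.97 for Ski (SE 0.11, adjusted p = 5.29e-07) and 0.54 for Smad7 (SE 0.11, adjusted p = 0.000354), the last 0.35 without replicate 4 (adjusted p = 9.48e-07). It was -0.84 for Lefty1 (SE 0.14, adjusted p = 5.30e-05), -0.77 for Lefty2 (SE 0.09, adjusted p = 6.93e-07) and -0.51 for Id3 (SE 0.18, adjusted p = 0.0368). The Id3 difference was -0.25 without replicate 4 (adjusted p = 0.304) and -0.50 without replicate 3 (adjusted p = 0.111), over a range of adjusted p from 0.0112 to 0.380 among its alternatives. Pmepa1 had a difference of 0.90 (SE 0.12), between those of Ski and Smad7. For Skil, Nodal and Id1 the differences of -0.11 (SE 0.09), -0.26 (SE 0.11) and -0.94 (SE 0.41) did not pass. That of Nodal (adjusted p = 0.0948) passed under 4 alternatives, and its adjusted p ran from 0.0143 to 0.364 among all of them, with a difference of -0.12 without replicate 4.

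The single plates show how far these values rest on replicate 4. In fRIP the log2 ratios of the plates ran from 1.61 to 2.38 for Pmepa1, 1.29 to 2.07 for Smad6, 0.95 to 1.71 for Ski and 0.68 to 1.31 for Smad7, and replicate 4 gave the highest in each. The lowest ratios of Lefty1 (-1.23), Lefty2 (-1.09), Nodal (-0.78), Id1 (-1.06) and Id3 (-1.15) came from the same plate, and that of Skil (-0.56) from replicate 5. Gene bodies of 20 kb or more held 64.1% of the UMIs in the replicate 4 input, compared with 65.1% to 69.8% in the other fRIP inputs. Without this plate Smad6 (1.38), Ski (1.00) and Smad7 (0.74) were still called higher in fRIP, and Lefty2 (-0.88), Lefty1 (-0.61) and Id1 (-0.76) still lower. With replicate 5 left out instead, 3 of the 9 genes were called higher in fRIP and 4 lower, as with all plates. In UV-RIP the plates lay closer together, from 0.86 to 1.02 for Pmepa1, 0.30 to 0.43 for Smad6, 0.23 to 0.47 for Smad7 and 0.17 to 0.23 for Ski. The common dispersion of the UV-RIP libraries was 0.00124, against 0.00900 in fRIP.

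The inputs of the crosslinkers differed for the Lefty and Id genes before any IP. Of the 9 genes 2 were called higher in the fRIP input (Id1 and Id3), where 10.6% of all genes were, and 2 lower (Lefty1 and Lefty2), where 9.44% were. The log2 difference (fRIP minus UV-RIP input) was 1.94 for Id1 (SE 0.28, adjusted p = 4.81e-05), 0.88 for Id3 (SE 0.21, adjusted p = 0.00309), -0.84 for Lefty2 (SE 0.08, adjusted p = 5.79e-07) and -0.96 for Lefty1 (SE 0.12, adjusted p = 8.98e-06). The fRIP and UV-RIP inputs of Lefty1, Lefty2, Id1 and Id3 did not overlap, narrowly for Id3 (from 7.19 CPM in fRIP and up to 7.145 CPM in UV-RIP). The share of all genes whose groups do not overlap was not counted, here or for IP against input. Over all genes 2427 were higher and 2165 lower, and 1835 and 2780 once Gm26917 and Gm42418 were left out of the library sizes. Without replicate 4 the Id3 difference was 0.53 and no longer reached 1.5-fold. Pmepa1 differed by -0.09 (SE 0.14, adjusted p = 0.652), Smad7 by 0.07 (SE 0.10, adjusted p = 0.600), Smad6 by -0.29 (SE 0.14, adjusted p = 0.120), Ski by -0.30 (SE 0.13, adjusted p = 0.0885) and Skil by 0.08 (SE 0.07, adjusted p = 0.451). Without replicate 4 these values were 0.06 for Pmepa1, 0.16 for Smad7 (adjusted p = 0.0391, past the test), -0.12 for Smad6, -0.13 for Ski and 0.03 for Skil. Without Gm26917 and Gm42418 in the library sizes Smad6 (-0.39, adjusted p = 0.0426) and Ski (-0.40, adjusted p = 0.0302) passed the test below the fold threshold. Nodal passed the test at 0.32 (SE 0.09, adjusted p = 0.0124) below the fold threshold, and did not pass without those RNAs (0.22, adjusted p = 0.0742). Each crosslinker had its own plates and RNA recovery, so crosslinker, culture and the amount of RNA per cell cannot be told apart. Of the cell type markers tested, 7 of 11 naive, 4 of 7 trophoblast, 3 of 8 primitive endoderm, 1 of 3 fibroblast and 1 of 7 primed and mesendoderm markers were called higher in the fRIP input, where 10.6% of all genes were, and their part in the result was not tested.

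Per kilobase of gene body, the order of input levels was led by Lefty2 with either crosslinker. In the fRIP inputs the mean level per kilobase was 11.3 CPM for Lefty2 and 9.55 for Nodal, whose ranges overlapped, followed by 6.45 for Smad7, 5.26 for Id3 and 4.58 for Lefty1, which also overlapped. Ski (2.68), Skil (2.43), Id1 (1.80), Pmepa1 (1.37) and Smad6 (0.395) were lowest on this scale. In the UV-RIP inputs Lefty2 had 20.3 CPM per kilobase, Lefty1 8.90, Nodal 7.66, Smad7 6.13, Ski 3.31, Id3 2.86, Skil 2.31, Pmepa1 1.46, Smad6 0.484 and Id1 0.463, and only Lefty1 and Nodal, Id3 and Skil, and Smad6 and Id1 overlapped with their neighbour in this order. The order depends on the length used, since introns make up most of Pmepa1, Smad6 and Ski. Per kilobase of exon the fRIP inputs were led by Smad7 (40.5 CPM), Nodal (33.6) and Ski (33.1), ahead of Lefty2 (26.0) and Pmepa1 (14.5). The lowest were Lefty1 (8.80), Smad6 (8.51), Skil (6.91), Id3 (6.63) and Id1 (1.80). In the UV-RIP inputs Lefty2 led per kilobase of exon too (46.7 CPM), followed by Ski (40.7), whose range overlapped with it, and Smad7 (38.5).

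The genes called higher and lower in fRIP differed in gene length. Pmepa1, Smad6 and Ski have gene bodies of 52.1, 69.0 and 68.5 kb and Smad7 one of 28.4 kb, while Lefty1, Lefty2, Id1 and Id3 span 3.38, 5.996, 1.16 and 2.26 kb. Skil, lower in the IP without reaching 1.5-fold, spans 27.5 kb. Across genes that averaged at least 10 UMIs, the median fRIP log2 fold change was -0.52 below 5 kb, -0.22 from 5 to 20 kb, -0.01 from 20 to 50 kb and 0.28 at 50 kb or more. In the class of 50 kb or more 23.8% of genes were called higher in the fRIP IP, and below 5 kb 43.1% were called lower. UV-RIP showed a narrower range, with medians from -0.27 below 5 kb to -0.11 at 50 kb or more.

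With a smooth trend on gene-body length removed from the fRIP fold changes, the long genes kept their calls and 3 of the 4 short ones lost them. Smad6 was then at 1.38 (adjusted p = 1.63e-09), Ski at 1.01 (adjusted p = 3.38e-08), Smad7 at 0.91 (adjusted p = 4.32e-08) and Pmepa1 at 1.75. Lefty2 remained called at -0.59 (adjusted p = 4.89e-06), and Lefty1 (-0.33), Id1 (-0.27) and Id3 (-0.11) were not. Skil, close to Smad7 in length, was at -0.41. In UV-RIP the same correction gave 1.11 for Pmepa1, 0.51 for Smad6, 0.52 for Smad7 and 0.33 for Ski. With a trend on transcript GC content removed in place of length, the fRIP values were 1.78 for Pmepa1, 1.34 for Smad6, 1.08 for Ski and 0.76 for Smad7. Counts cover the whole gene body, so exon and intron reads of these genes were not separated.

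**Figure D3:**
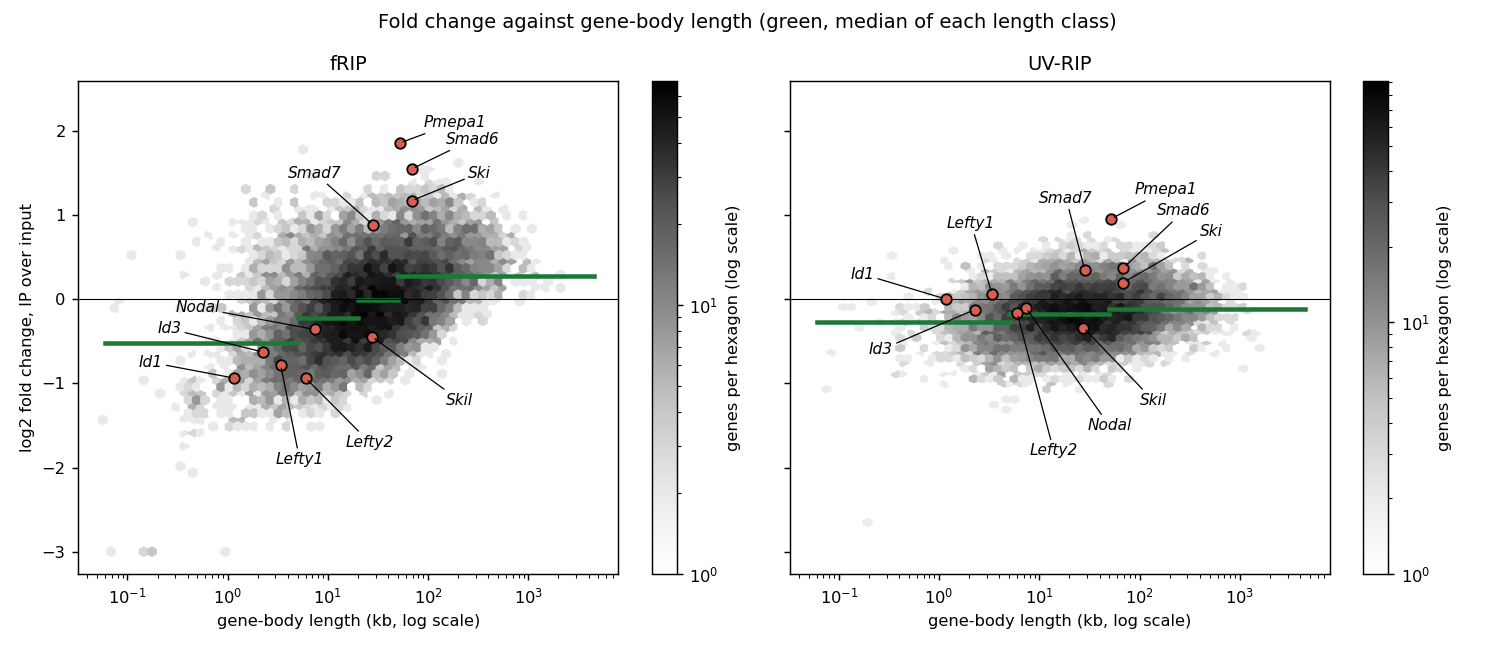
Fitted log2 fold change of IP over input (vertical axis) against gene-body length in kilobases (horizontal axis, log scale) in fRIP and UV-RIP. Grey hexagons count genes that averaged at least 10 UMIs, with values beyond 3 drawn at 3, green lines are the medians of 4 length classes and red points the 10 genes. In fRIP the class medians run from -0.52 to 0.28, with Pmepa1, Smad6, Ski and Smad7 above and Lefty1, Lefty2, Id1 and Id3 below the median of their own class.

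The genes whose 8 plate ratios were most like those of Pmepa1 were looked for among 10207 other well counted genes. The measure was the root mean square difference of the log2 ratios, and the nearest were Shb (0.315), Glis1 (0.326), Rbfox3 (0.331), Macrod1 (0.343) and Igsf21 (0.354). Shb encodes an adaptor of receptor signaling, Glis1 a zinc-finger transcription factor and Rbfox3 an RNA-binding protein known as a neuronal marker. Their fRIP log2 fold changes lay between 1.55 for Rbfox3 and 1.75 for Macrod1, and their UV-RIP values between 0.61 for Macrod1 and 0.73 for Glis1. All 5 have gene bodies of 109 kb or more and a transcript GC content of 58.6% or more, against 54.5% in Pmepa1. The medians of all genes tested were 16.9 kb and 49.5%. The share of equally enriched genes that are this long and GC-rich was not counted. Of the feedback genes Smad6 came nearest, at rank 11 (0.469), then Ski at rank 152 (0.720) and Smad7 at rank 268 (0.814). Nodal (rank 6888), Skil (7888), Id3 (8364), Lefty1 (8753) and Lefty2 (9509) were far down the same order.

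The wider pathway was covered by 99 further genes in 6 lists, of which 93 were tested. In fRIP 14 of the 93 were called higher in the IP and 13 lower, where 8.8% and 10.7% of all genes were, with a median log2 fold change of -0.05 against -0.03 for all genes. Of the 14 higher genes 13 had gene bodies of 20 kb or more, and of the 13 lower genes 12 were shorter than that. The 93 genes had a median gene body of 22.3 kb. Over all genes averaging at least 10 UMIs, 23.8% were called higher at 50 kb or more and 43.1% lower below 5 kb. In UV-RIP 1 of the 93 was called higher and 0 lower, against 0.68% and 5.53% of all genes. By edgeR's unadjusted p below 0.05, without the fold threshold, 14 were higher and 29 lower in UV-RIP, against 8.03% and 32.6% of all genes, and DESeq2 with total UMIs called 0. The UV-RIP gene is Acvrl1, a type I receptor named here after its values were seen, with 8 to 11 UMIs in the IPs and 2 to 5 in the inputs (log2 fold change 1.17, SE 0.49, adjusted p = 0.0466). No pathway gene was called in UV-RIP with a minimum of 10 UMIs in 4 libraries, or without replicate 3 or 4. Under TMM scaling 6 were called higher, while the higher UV-RIP calls over all genes rose from 156 to 505. The crosslinker difference was greater in fRIP for 26 of the 93 genes and smaller for 13, against 18.6% and 8.07% of all genes. The split over all genes moves with the scaling. In the inputs 17 were called higher in fRIP and 3 lower, against 10.6% and 9.44% of all genes. Median fRIP log2 fold changes were 0.24 for the ligands, 0.16 for the receptors, 0.20 for the signal-transducing Smads, 0.24 for the extracellular antagonists and -0.11 for the intracellular regulators.

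The counts of single lists are few genes each and stand against the same 8.8% of all genes called higher and 10.7% called lower in fRIP. Among 17 ligands tested, 5 were called higher in the fRIP IP and 1 lower. Bmp7, a BMP ligand, had 33.8 ± 4.34 CPM in the IPs and 16.2 ± 4.45 CPM in the inputs (SD, n = 4; log2 fold change 1.08, adjusted p = 1.54e-08). Gdf3, a Nodal-like ligand of pluripotent cells, fell by 0.99 on the log2 scale (adjusted p = 5.94e-09). Gdf9 was also called, at 0.91 (adjusted p = 0.0420), from levels below 1 CPM. Of 15 receptors and co-receptors, 2 were higher, Tgfbr2 (0.61, adjusted p = 0.000486) and Acvr2b (0.60, adjusted p = 1.11e-05), and 1 was lower, the Nodal co-receptor Tdgf1 (-0.83, adjusted p = 1.34e-08).

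Of the 6 signal-transducing Smads 2 were called higher in fRIP. Smad3, which carries TGF-beta and Nodal signals, had 112 CPM in the IPs and 52.1 CPM in the inputs on average (log2 fold change 1.11, SE 0.09, adjusted p = 5.23e-10), and the BMP effector Smad1 was at 0.62 (adjusted p = 8.09e-06). Among 17 extracellular antagonists and modulators 1 was higher, Ltbp2, which binds the matrix (1.13, adjusted p = 4.23e-07), and 2 were lower, the pseudoreceptor Bambi (-0.87, adjusted p = 1.24e-06) and the activin trap Fst (-0.77, adjusted p = 4.74e-05). Among 18 intracellular regulators 4 were higher and 1 lower. Zfp423, a BMP Smad cofactor, was at 1.38 (adjusted p = 2.33e-11), Ldlrad4, a relative of Pmepa1 that also holds back Smads, at 0.93 (adjusted p = 3.29e-09), and the ubiquitin ligase Smurf1 at 0.91 (adjusted p = 5.83e-09). In UV-RIP Ldlrad4 was at 0.10 and Zfp423 at 0.48, neither past 1.5-fold.

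Of 20 transcriptional targets tested, 8 were called lower in the fRIP IP and 0 higher, against 10.7% and 8.8% of all genes. Their median log2 fold change was -0.57. Genes below 5 kb that averaged at least 10 UMIs, a filter not applied to the targets, had a median of -0.52, and 43.1% of them were called lower. At an unadjusted p below 0.05, 10 were lower and 0 higher, against 24.6% and 20.4% of all genes. Id2 fell by 1.35 on the log2 scale (adjusted p = 3.65e-07), the stress-response gene Gadd45b by 1.03 (adjusted p = 1.54e-06) and Ccn2, a matrix protein gene listed under its older name Ctgf, by 0.90 (adjusted p = 5.82e-07). These targets had a median gene body of 4.49 kb, against 89.2 kb for the receptors, and 10 of them were called higher in the fRIP input than in the UV-RIP input, where 10.6% of all genes were. The part of gene length in the difference between the lists was not tested.

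**Figure D4:**
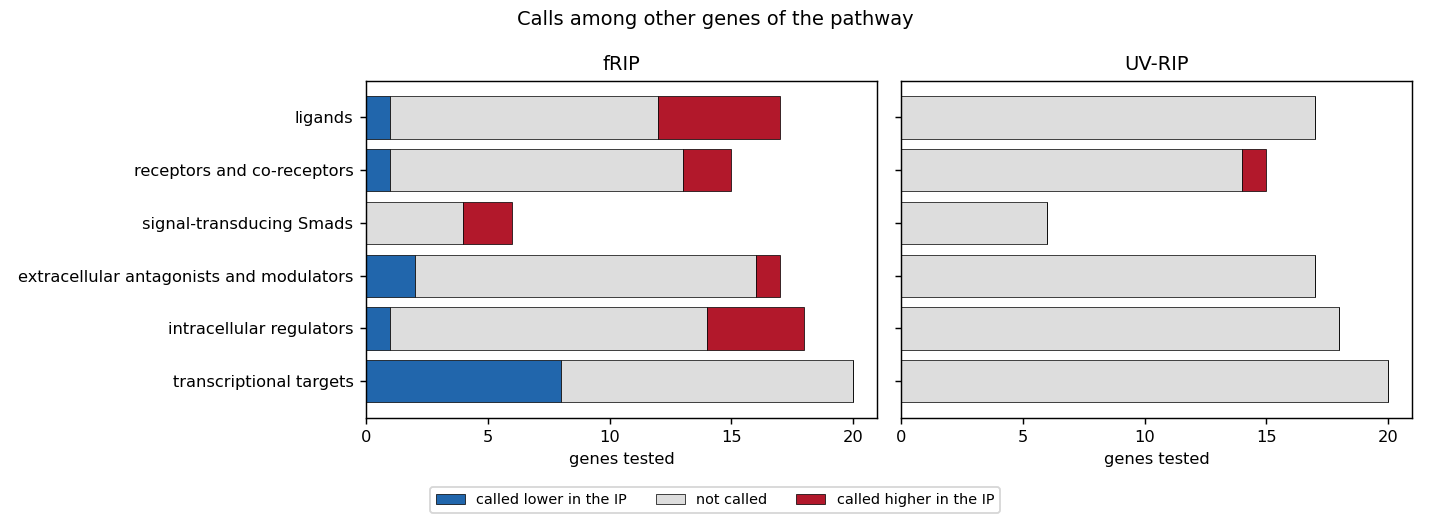
Number of genes tested (horizontal axis) in each of 6 lists of other pathway genes (vertical axis), split into those called lower in the IP (blue), not called (grey) and called higher (red), in fRIP and UV-RIP. In fRIP 8 of 20 transcriptional targets were lower and 0 higher. Over all lists 14 of the 93 genes were higher and 13 lower in fRIP, where 8.8% and 10.7% of all genes were. In UV-RIP 1 receptor gene was called higher, where 0.68% of all genes were.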

How the data were processed

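Sox2 IP and input RNA was sequenced in 16 mESC libraries, 4 for each combination of crosslinker and pulldown. Per the paper's methods, the authors mapped reads with STAR to the mouse genome (mm10 in the submitters' processing notes), discarded reads that were not uniquely mapped and, with featureCounts on GENCODE vM16 gene bodies, deposited raw counts of UMIs per gene, not normalized. Tool versions and the strand setting are not given in the sources used here. All count columns were matched to a library.

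The 10 genes and all lists were chosen with earlier results of these data known. Tests used edgeR 4.0.16 under R 4.3.3 (quasi-likelihood test, total UMIs as library size, replicate number as a block, Benjamini-Hochberg over 22936 genes). Filter and thresholds follow the study's methods, but the study tested with DESeq2. Over all genes DESeq2 with total UMIs called 78 higher in UV-RIP and 1633 in fRIP here, against 156 and 2018 with edgeR. Library size was the sum of UMIs over the genes of the deposited table, whereas the methods scale by the UMIs of all uniquely mapped reads. The input comparison used no block, and the crosslinker difference was an interaction term in a fit of the 16 libraries, blocked by plate. By the methods, IP and input of a number were taken from a shared lysate, and their deviations from the group means correlated at 0.114 to 0.601 in fRIP and 0.0286 to 0.441 in UV-RIP. Replicates differed by more than sampling noise (the lowest chi-square per degree of freedom was 1.47), so none was counted as a copy. The methods state distinct culture plates of the same mESC. The tests share information on spread between genes, so a p-value does not rest on the gene's own spread between plates alone. In UV-RIP the fit gave Smad7 an SE of 0.04, and its 4 plate ratios had an SD of 0.13. In the edgeR fit over all 16 libraries the UV-RIP adjusted p was 0.000764 for Smad7 and 0.00216 for Smad6.

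Besides the 10 genes, the text names up to 3 called genes per pathway list and crosslinker with a mean of 10 or more UMIs, by size of change, and the 5 genes nearest to Pmepa1. Acvrl1, Gm26917, Gm42418, Sox2ot and Pmepa1os were picked once their values were known. CPM are these counts divided by the library's total. Gene coordinates, exon shares and transcripts are from GENCODE vM21 on GRCm38, matched by versioned identifier for 50604 genes. Of the listed symbols 2 were matched through RefSeq synonyms. DESeq2 1.42.0 served for alternatives. The scripts were tested on simulated counts. Trends on gene-body length or transcript GC were fitted by lowess (span 0.3) to the fitted log2 fold changes of genes averaging at least 10 UMIs and entered as offsets in a second fit.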

Additional observations from a re-analysis of the deposited data

Results flagged for a closer look

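Among 60 groups of 4 values examined (the level of each of the 10 genes in each of the 4 groups of libraries, and its plate ratios in each crosslinker), 6 held a value far from the other 3 by Dixon's criterion, which chance gives in about 1 group of 20. Of these, 4 come from replicate 4 of fRIP. Its input had the lowest level of Pmepa1 (43.5 CPM) and of Ski (117 CPM), and its plate had the highest log2 ratio of IP to input for Ski (1.71) and the lowest for Id3 (-1.15). The other two are in the UV-RIP input of replicate 5, at 82.4 CPM for Pmepa1 and 0.681 CPM for Id1, the latter from 9 UMIs.

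The interaction test found a different ratio of IP to input in fRIP than in UV-RIP for 6 of the 9 genes, 3 greater and 3 smaller in fRIP, against 18.6% and 8.07% of all genes. The log2 differences were 1.17 for Smad6, 0.97 for Ski, 0.54 for Smad7, -0.51 for Id3, -0.77 for Lefty2 and -0.84 for Lefty1. The call of Id3 was lost without replicate 4 (adjusted p = 0.304), without replicate 3 (0.111), without the block (0.215) and with the length trend removed (0.380). Crosslinker and plates cannot be told apart in this design.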

How the results depend on the processing

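The fRIP calls of Smad6, Smad7 and Ski and of Lefty2 were kept under each alternative with the 1.5-fold threshold as a cutoff. Of the 9 genes, 7 were called in fRIP, 4 of them lower. With the gene-length trend removed 4 were called and 1 was lower, and likewise with the 1.5-fold threshold tested inside the model. In UV-RIP the 0 calls became 5 without a fold threshold, 3 higher and 2 lower. The number of pathway genes called in fRIP, 27 with 14 higher and 13 lower, became 17 with the length trend removed, 6 of them lower, 14 with the threshold tested inside the model, 7 in each direction, and 49 without a fold threshold, 25 higher and 24 lower. Over all genes the fRIP calls, 2018 higher and 2448 lower, became 2087 and 1297, and 728 and 1007, under the first 2 of these settings. The single UV-RIP pathway call, a higher one, became 6 under TMM scaling, 4 without Gm26917 and Gm42418 in the library sizes, 4 under DESeq2 median of ratios and 4 with the length trend removed, all higher, while the higher UV-RIP calls over all genes rose from 156 to 505, 419, 288 and 471. It became 0 under DESeq2 with total UMIs, without a count filter, with 10 UMIs in 4 libraries, with the threshold tested inside the model and in a fit over all 16 libraries, 0 to 2 as each replicate was left out (0 without replicate 3 or 4, 2 without 5), and 37 without a fold threshold, 13 higher and 24 lower. The crosslinker difference had 5 in place of 3 genes lower in fRIP without Gm26917 and Gm42418, where Nodal (-0.39, adjusted p = 0.0143) and Skil (-0.24, adjusted p = 0.0394) were added. Nodal also passed under TMM (-0.38, adjusted p = 0.0187), DESeq2 median of ratios (-0.40, 0.0192) and with the transcript GC trend removed (-0.37, 0.0144). In the inputs 2 higher genes became 1 with the threshold tested inside the model, and 1 to 2 as each replicate was left out (1 without replicate 4). Id1 in fRIP had an adjusted p of 0.0514 under DESeq2 median of ratios. Id3 in fRIP was at -0.58 under TMM, just short of 1.5-fold.

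Several UV-RIP log2 fold changes changed sign, most of them near 0, whereas that of Skil was -0.34 before the alternatives. Nodal was at 0.0795 under TMM, 0.0521 without Gm26917 and Gm42418, 0.0721 under DESeq2 median of ratios and 0.10 with the length trend removed. Lefty2 was at 0.0187, 0.0118 and 0.0581 under TMM, median of ratios and the length trend. Id3 was at 0.055, 0.0267, 0.0525 and 0.15 under the same settings as Nodal. Id1 was at -0.0142 under DESeq2 with total UMIs and from -0.12 (without replicate 6) to 0.11 (without replicate 4) as each replicate was left out, and Skil at 0.0395 with the transcript GC trend removed, an alternative chosen after seeing the files. In the inputs Pmepa1 ran from -0.178 without replicate 6 to 0.0645 without replicate 4, and Smad7 and Skil were at -0.0239 and -0.0247 without Gm26917 and Gm42418. The causes were not tested.

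Without the replicate block, the Id3 crosslinker difference of -0.52 was lost (adjusted p = 0.215; it was also lost under DESeq2 with total UMIs, at 0.118), and the other member calls stood, with 25 pathway genes called in fRIP. A trend on gene-body GC was planned and not run, since no genome sequence was used. Depth limits Id1, with 5 to 11 UMIs per UV-RIP library, and Acvrl1.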
